A study of Mus musculus with 24 samples.

Results

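Tuft cell markers were followed in the terminal ileum of mice that differed in colonization and in the β2→1-fructan they received. The set held 10 named genes (Dclk1, Trpm5, Il25, Pou2f3, Alox5ap, Alox5, Ptgs1, Hpgds, Sucnr1 and Gfi1b), and a probe set was taken where the array annotation gave that symbol and no other. This gave values for 9 of the 10 genes, out of 18820 genes measured, and Ptgs1 was not analysed here. In germ-free mice 4 of these 9 genes were lower than in conventional mice over the 3 treatments at an adjusted p under 0.05 (Alox5, Dclk1, Trpm5 and Hpgds, 1.18-fold to 1.41-fold, limma), as were 15.4% of all genes. Only Alox5, 1 of the 9, met the criteria of the study (a fold change above 1.3 and an unadjusted p below 0.01), against 8.2% of all genes. Markers of myeloid cells, enteric neurons and smooth muscle were lower in germ-free mice as well, and their part in these differences was not tested. Neither fructan changed any of the 9 genes at the thresholds used, in conventional or in germ-free mice.

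Tuft cells are rare chemosensory cells of the intestinal epithelium. The transcription factor Pou2f3 is needed for their formation, and they carry a signalling chain shared with taste cells that ends in opening of the cation channel Trpm5. In the small intestine they respond to succinate from microbes through the receptor Sucnr1, they are the main epithelial source of interleukin-25, which acts on innate lymphoid cells of type 2, and they make leukotrienes and prostaglandins from arachidonic acid. Type 2 cytokines in turn act on the crypts, where they raise the number of tuft and goblet cells.

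The mice were male C57BL/6OlaHsd of 8 weeks, with 4 mice in each of 6 groups and 1 array per mouse. Conventional, specified pathogen-free mice came from a commercial supplier and germ-free mice from a university breeding colony, so that colonization and origin of the mice cannot be told apart. Both kinds received by gavage water, short-chain β2→1-fructan (called FOS in the sample labels) or long-chain β2→1-fructan (called IN), at 10 mg per day for 5 days. For germ-free mice only, the short-chain fructan was passed through a sterile filter and the long-chain fructan was irradiated, which broke down some of its longer chains, so that a fructan effect in germ-free mice differs from that in conventional mice also in how the fructan was treated. RNA came from whole tissue pieces, in which fewer tuft cells and less RNA per tuft cell cannot be told apart. All values are log2 expression values normalized by the authors. Over all probe sets the medians of the 24 arrays lay between 4.92 and 4.98. Arrays of the same group correlated over the 18820 genes with r from 0.990 to 0.995 (36 pairs).

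On GRCm38 the measured genes lie on several chromosomes. Pou2f3 spans chr9:43123927-43205755 and Gfi1b chr2:28609450-28621982. Dclk1 spans chr3:55242303-55539068, Trpm5 chr7:143071529-143094642, Sucnr1 chr3:60081869-60087566 and Il25 chr14:54932695-54935837. Of the eicosanoid enzymes, Alox5 spans chr6:116410071-116461178, Alox5ap chr5:149265004-149288153 and Hpgds chr6:65117293-65144981. Dclk1 had 2 probe sets and each other measured gene had 1. The probe sets of Sucnr1 and Il25 gave low values (means 3.17 and 3.36). The mean of Sucnr1 was below the 20th percentile of all gene means, which was 3.27, and no detection call comes with these values.

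RefSeq promoter windows of GRCm38 were found for 7 of the 10 genes, and those of the 4 genes that were lower in germ-free mice are shown because these genes differed in the same direction. Each line gives the 250 bases before an annotated transcription start, 5′ to 3′ on the strand of the gene. Capitals mark the motifs searched on both strands, which were the octamer ATGCAAAT bound by POU factors, the GC box GGGCGG and GAGGAAGT, a sequence bound by PU.1 and related ETS factors. The windows are chr6:116461179-116461428 (minus strand) for Alox5, chr6:65144731-65144980 (minus strand) for Hpgds and chr7:143094643-143094892 (minus strand) for Trpm5. Dclk1 has 2 starts with a window, chr3:55242114-55242363 and chr3:55461478-55461727 (plus strand).
Alox5: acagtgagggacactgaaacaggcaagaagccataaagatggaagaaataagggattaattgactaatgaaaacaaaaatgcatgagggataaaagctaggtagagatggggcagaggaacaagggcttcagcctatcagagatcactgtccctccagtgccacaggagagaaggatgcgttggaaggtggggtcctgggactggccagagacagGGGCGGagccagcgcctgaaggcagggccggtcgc
Hpgds: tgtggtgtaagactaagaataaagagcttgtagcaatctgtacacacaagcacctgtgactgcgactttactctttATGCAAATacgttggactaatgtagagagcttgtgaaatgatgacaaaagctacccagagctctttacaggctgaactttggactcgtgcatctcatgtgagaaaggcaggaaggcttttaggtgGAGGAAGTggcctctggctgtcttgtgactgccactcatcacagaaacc
Trpm5: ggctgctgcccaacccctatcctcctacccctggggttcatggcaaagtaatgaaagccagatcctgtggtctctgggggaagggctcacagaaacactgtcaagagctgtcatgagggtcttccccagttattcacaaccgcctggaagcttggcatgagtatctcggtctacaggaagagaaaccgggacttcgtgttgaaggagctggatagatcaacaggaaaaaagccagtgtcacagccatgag
Dclk1, first start: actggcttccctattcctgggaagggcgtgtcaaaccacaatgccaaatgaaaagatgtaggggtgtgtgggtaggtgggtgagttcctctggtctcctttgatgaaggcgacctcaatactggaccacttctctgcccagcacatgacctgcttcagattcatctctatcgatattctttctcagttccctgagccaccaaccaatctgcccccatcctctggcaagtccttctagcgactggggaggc
Dclk1, second start: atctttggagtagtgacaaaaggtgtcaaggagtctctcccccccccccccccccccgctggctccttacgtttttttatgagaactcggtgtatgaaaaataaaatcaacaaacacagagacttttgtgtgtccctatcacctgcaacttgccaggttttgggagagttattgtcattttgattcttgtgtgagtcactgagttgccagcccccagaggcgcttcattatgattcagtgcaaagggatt
Alox5 held 1 GC box, 35 bases before the start. Hpgds held 1 octamer 174 bases and 1 PU.1 sequence 49 bases before the start. No motif of the 3 was found in the window of Trpm5 or in either window of Dclk1. Over 32851 windows of 300 bases (250 before and 50 after a start), the octamer was in 1.74%, the GC box in 35.7% and the PU.1 sequence in 3.2%. Among the other windows found, Sucnr1 held an octamer, Gfi1b a GC box and Ptgs1 a PU.1 sequence. A match describes the letters of the window and is not a measured binding site.

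The first comparison asked how the markers differed between germ-free and conventional mice. Differences are those of log2 group means from 1 limma fit of all genes, averaged over water and both fructans, and adjusted p are Benjamini-Hochberg values over all 18820 genes. Of the 9 genes, 8 had a negative difference (lower in germ-free mice) and the median was -0.24, against 0.03 over all genes. By the criteria of the study only Alox5 was called, 1 of 9 genes against 8.2% of all genes in either direction and 5.22% lower. At an adjusted p under 0.05 there were 4 of 9, all lower, against 34% of all genes in either direction (15.4% lower and 18.6% higher). No gene of the set separated all 12 germ-free from all 12 conventional mice, which 3.75% of all genes did.

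**Figure D1:**
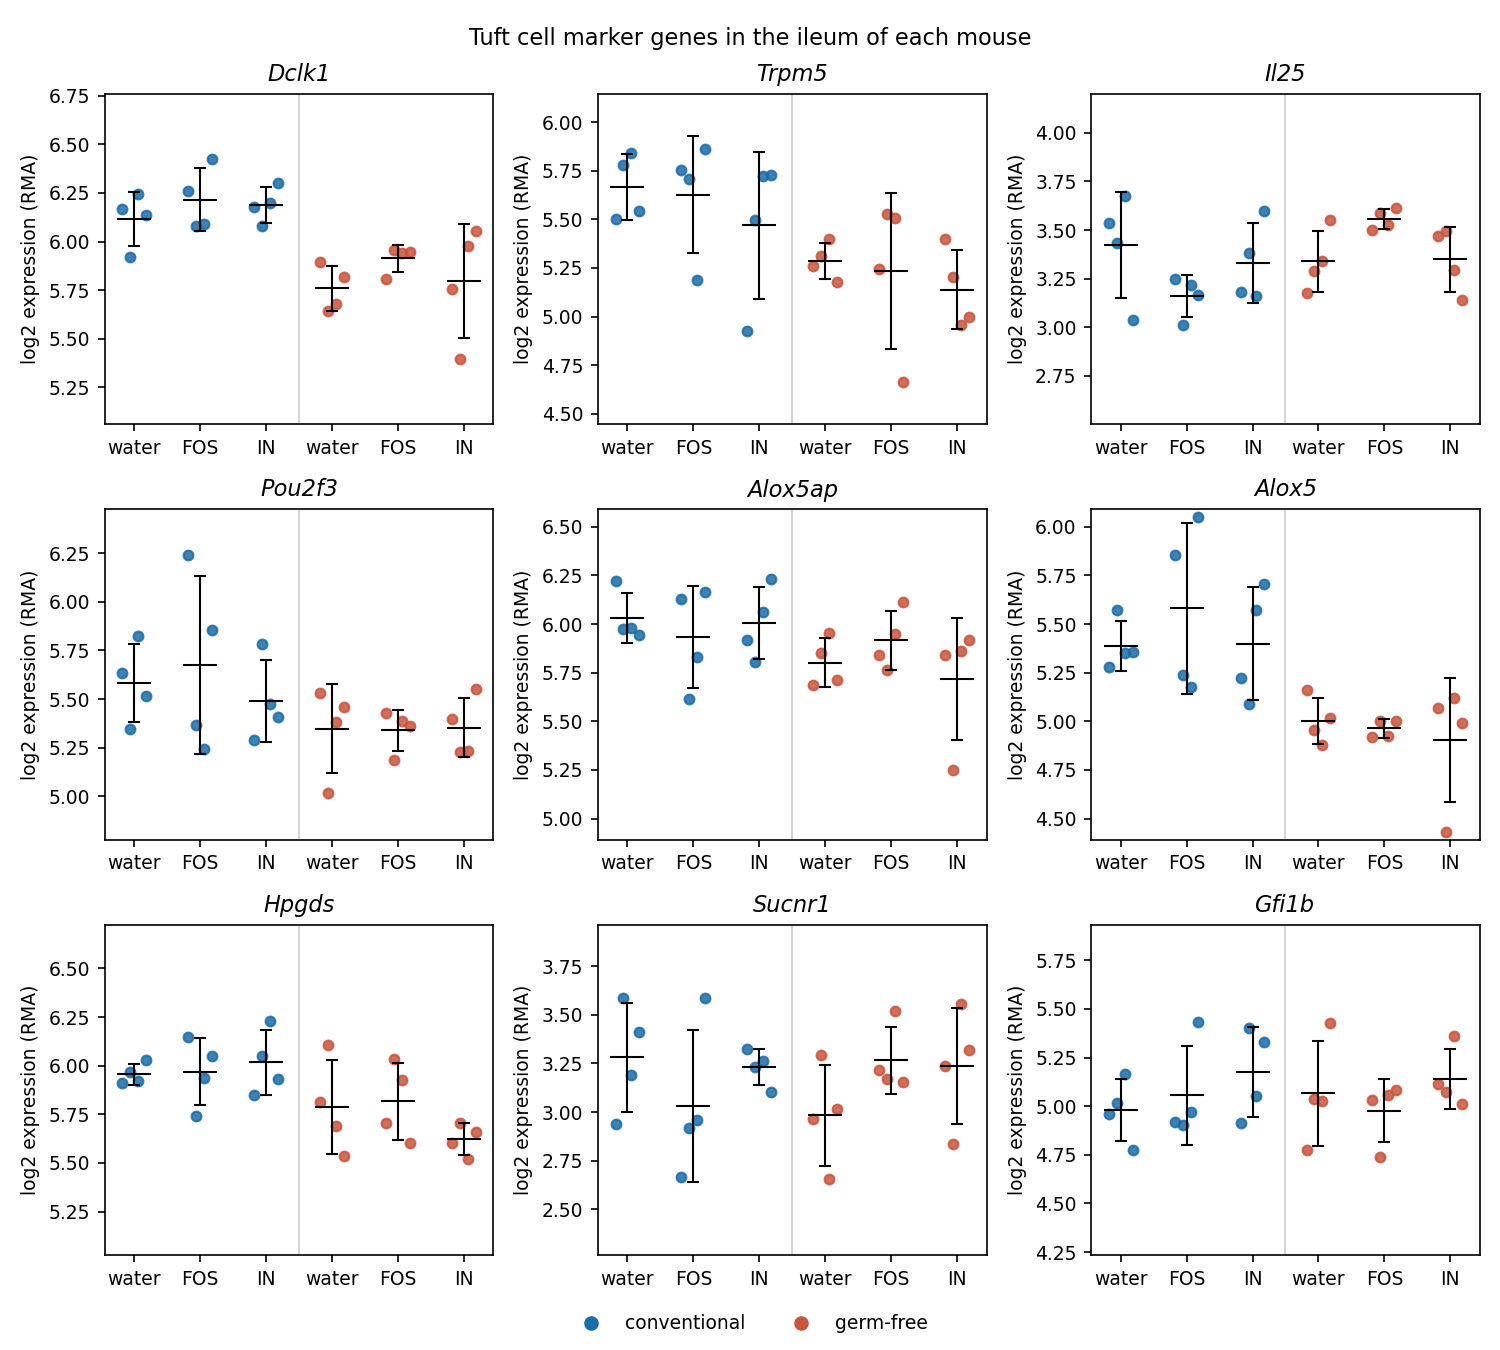
Log2 expression (vertical axis, RMA values) of the 9 measured tuft cell markers in each mouse, with conventional mice in blue and germ-free mice in red, after water, short-chain (FOS) or long-chain (IN) β2→1-fructan. Points are mice, 4 per group, and black lines are the group mean ± SD. All panels span the same range of log2 units, so that the lower values of Alox5 and Dclk1 in germ-free mice can be set beside the overlapping values of Gfi1b and Sucnr1.

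Among transcription factors, Pou2f3, the POU-domain regulator of the tuft lineage, had a negative difference whose side of the adjusted threshold changed with the setting. For Pou2f3, the conventional mice given water had 5.63, 5.35, 5.82 and 5.52, those given the short-chain fructan 6.24, 5.37, 5.24 and 5.85 and those given the long-chain fructan 5.29, 5.78, 5.48 and 5.41. The germ-free mice had 5.53, 5.01, 5.38 and 5.46 with water, 5.43, 5.19, 5.38 and 5.36 with the short-chain fructan and 5.40, 5.23, 5.24 and 5.55 with the long-chain fructan. The 2 highest values were both from conventional mice on short-chain β2→1-fructan, whose other 2 mice lay among the lower conventional values. The 12 conventional mice had a median of 5.50 (5.24 to 6.24) and the 12 germ-free mice one of 5.38 (5.01 to 5.55). The difference was -0.24 (SE 0.094, 95% confidence interval -0.43 to -0.043, adjusted p = 0.054, limma). The adjusted p was 0.046 with the replicate number as a block, 0.047 with dim genes left out and 0.015 to 0.11 with 1 mouse left out. It was under 0.05 without conventional replicate 2 on water, 2 or 3 on short-chain or 1 on long-chain fructan, and without germ-free replicate 1 on water or 4 on long-chain fructan. Gfi1b, a zinc-finger repressor expressed in tuft cells and also in red cell and platelet precursors, ranged from 4.78 to 5.43 in conventional and from 4.74 to 5.43 in germ-free mice. Its difference was -0.0085 with an interval from -0.18 to 0.16. The order of its 6 group means mixed both kinds of mice, from 5.17 in conventional mice on long-chain fructan to 4.98 in germ-free mice on short-chain fructan, and each neighbouring pair in the order overlapped.

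Dclk1, a microtubule-associated kinase that is widely used to stain tuft cells and is also expressed in neurons, was 1.27-fold lower in germ-free mice. Log2 values of Dclk1 in conventional mice were 6.17, 5.92, 6.24 and 6.14 with water, 6.26, 6.08, 6.09 and 6.42 with the short-chain fructan and 6.18, 6.08, 6.20 and 6.30 with the long-chain fructan. Germ-free mice given water had 5.90, 5.64, 5.68 and 5.82, those given the short-chain fructan 5.81, 5.96, 5.94 and 5.95 and those given the long-chain fructan 5.76, 5.40, 5.98 and 6.05. The groups did not overlap within any treatment. Over treatments, 7 of 12 germ-free mice were below the lowest conventional value, and 11 of 12 conventional mice were above the highest germ-free value. The difference was -0.35 (SE 0.065, interval -0.48 to -0.22, adjusted p = 1.2e-04, limma), which passed the adjusted threshold but not the 1.3-fold limit of the study. Conventional group means ran from 6.12 ± 0.14 on water to 6.21 ± 0.16 on short-chain fructan, and germ-free means from 5.76 ± 0.12 on water to 5.91 ± 0.07 on short-chain fructan (SD, n = 4). Neighbouring groups in the order of means overlapped in their values. The second probe set of Dclk1 had a mean of 3.03, far down the range of the arrays, and gave a difference of -0.014 (SE 0.080, adjusted p = 0.92, limma), which averages -0.21 on water, 0.27 after short-chain and -0.10 after long-chain fructan (adjusted p from 0.20 to 0.68). With the mean of both probe sets the difference of Dclk1 was -0.18 in place of -0.35 (adjusted p = 0.021, limma), and after short-chain fructan -0.013 in place of -0.30, so that the result for Dclk1 rests on the probe set with the higher signal.

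Trpm5, the calcium-activated cation channel at the end of the taste cascade, was 1.29-fold lower in germ-free mice. With water, conventional mice had Trpm5 values of 5.50, 5.78, 5.84 and 5.54, which compares with 5.75, 5.71, 5.19 and 5.86 for the short-chain fructan and 4.93, 5.50, 5.72 and 5.73 for the long-chain fructan. Values without colonization were 5.26, 5.31, 5.40 and 5.18 with water, 5.25, 5.53, 5.51 and 4.67 with the short-chain fructan and 5.40, 5.20, 4.96 and 5.00 with the long-chain fructan. All 12 germ-free mice were below the conventional median of 5.72, but the ranges overlapped. Of the conventional mice, 8 of 12 were above the highest germ-free value, 5.53. The lowest conventional value was 4.93, on long-chain fructan, and 1 germ-free mouse was below it, at 4.67. The difference was -0.37 (SE 0.10, interval -0.58 to -0.16, adjusted p = 0.0062, limma). Trpm5 missed the 1.3-fold limit, which it passed (-0.43 to -0.38) without conventional replicate 1 or 4 on water, 3 on short-chain or 1 on long-chain fructan, or germ-free replicate 3 on water, 2 or 3 on short-chain or 1 on long-chain fructan. Each of the 3 conventional group means (5.67 on water, 5.63 on short-chain and 5.47 on long-chain fructan) was above each germ-free one (5.29, 5.24 and 5.14), and neighbours in this order overlapped.

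Sucnr1, the succinate receptor, and Il25, the cytokine by which tuft cells signal to innate lymphoid cells, did not pass a threshold in this average. Sucnr1 ranged from 2.67 to 3.59 in conventional and from 2.66 to 3.55 in germ-free mice, and the interval of its difference ran from -0.22 to 0.18. For Il25, the conventional mice given water had 3.54, 3.43, 3.67 and 3.04, those given the short-chain fructan 3.25, 3.01, 3.22 and 3.17 and those given the long-chain fructan 3.18, 3.38, 3.16 and 3.60. The germ-free mice had 3.18, 3.29, 3.34 and 3.55 with water, 3.50, 3.59, 3.53 and 3.62 with the short-chain fructan and 3.47, 3.50, 3.29 and 3.14 with the long-chain fructan. Il25 was the 1 gene with a higher mean in germ-free mice, with a difference of 0.11 (SE 0.073, interval -0.038 to 0.26, adjusted p = 0.26, limma). Its values in germ-free mice after short-chain fructan stood close together (3.50 to 3.62), above all 4 conventional mice after the same fructan (3.01 to 3.25).

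Alox5, the 5-lipoxygenase that starts leukotriene synthesis, was 1.41-fold lower in germ-free mice, the largest difference of the 9 genes. Log2 values of Alox5 in conventional mice were 5.28, 5.57, 5.35 and 5.36 with water, 5.85, 5.24, 5.18 and 6.05 with the short-chain fructan and 5.22, 5.09, 5.57 and 5.71 with the long-chain fructan. Germ-free mice given water had 5.16, 4.96, 4.88 and 5.02, those given the short-chain fructan 4.92, 5.00, 4.93 and 5.00 and those given the long-chain fructan 5.07, 4.43, 5.12 and 4.99. Of the germ-free mice, 10 of 12 were below the lowest conventional value, 5.09, and 11 of 12 conventional mice were above the highest germ-free value, 5.16. The difference was -0.50 (SE 0.097, interval -0.70 to -0.30, adjusted p = 1.8e-04, limma). Conventional mice on short-chain fructan had the highest mean and the widest spread, 5.58 ± 0.44, against 4.96 ± 0.05 in germ-free mice on the same fructan (SD, n = 4). In the order of the 6 means, only conventional mice on water and germ-free mice on water were neighbours without overlap.

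Alox5ap, the membrane protein that presents arachidonic acid to 5-lipoxygenase, had a negative difference that did not pass the adjusted threshold in the fit reported, and did so with the replicate number as a block (adjusted p = 0.047, limma) or without conventional replicate 2 on short-chain fructan (0.032). With water, conventional mice had Alox5ap values of 6.22, 5.98, 5.98 and 5.94, which compares with 6.13, 5.61, 5.83 and 6.16 for the short-chain fructan and 5.92, 5.80, 6.06 and 6.23 for the long-chain fructan. Values without colonization were 5.69, 5.85, 5.96 and 5.71 with water, 5.84, 5.76, 5.95 and 6.11 with the short-chain fructan and 5.84, 5.25, 5.86 and 5.92 with the long-chain fructan. Its difference was -0.18 (SE 0.078, interval -0.34 to -0.017, adjusted p = 0.082, limma), and 11 of 12 germ-free mice were below the conventional median of 5.98. Hpgds, the haematopoietic prostaglandin D synthase, was 1.18-fold lower. For Hpgds, the conventional mice given water had 5.91, 5.96, 5.92 and 6.03, those given the short-chain fructan 6.15, 5.74, 5.93 and 6.05 and those given the long-chain fructan 5.85, 6.05, 6.23 and 5.93. The germ-free mice had 5.81, 6.11, 5.69 and 5.54 with water, 5.70, 6.03, 5.93 and 5.60 with the short-chain fructan and 5.60, 5.71, 5.52 and 5.66 with the long-chain fructan. All 4 germ-free mice after long-chain fructan, at 5.52 to 5.71, were below the lowest conventional value of 5.74. The difference was -0.24 (SE 0.067, interval -0.38 to -0.10, adjusted p = 0.0061, limma). Alox5, Alox5ap, Hpgds and Gfi1b are also expressed in cells of the blood lineages, whose markers are given further on.

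**Figure D2:**
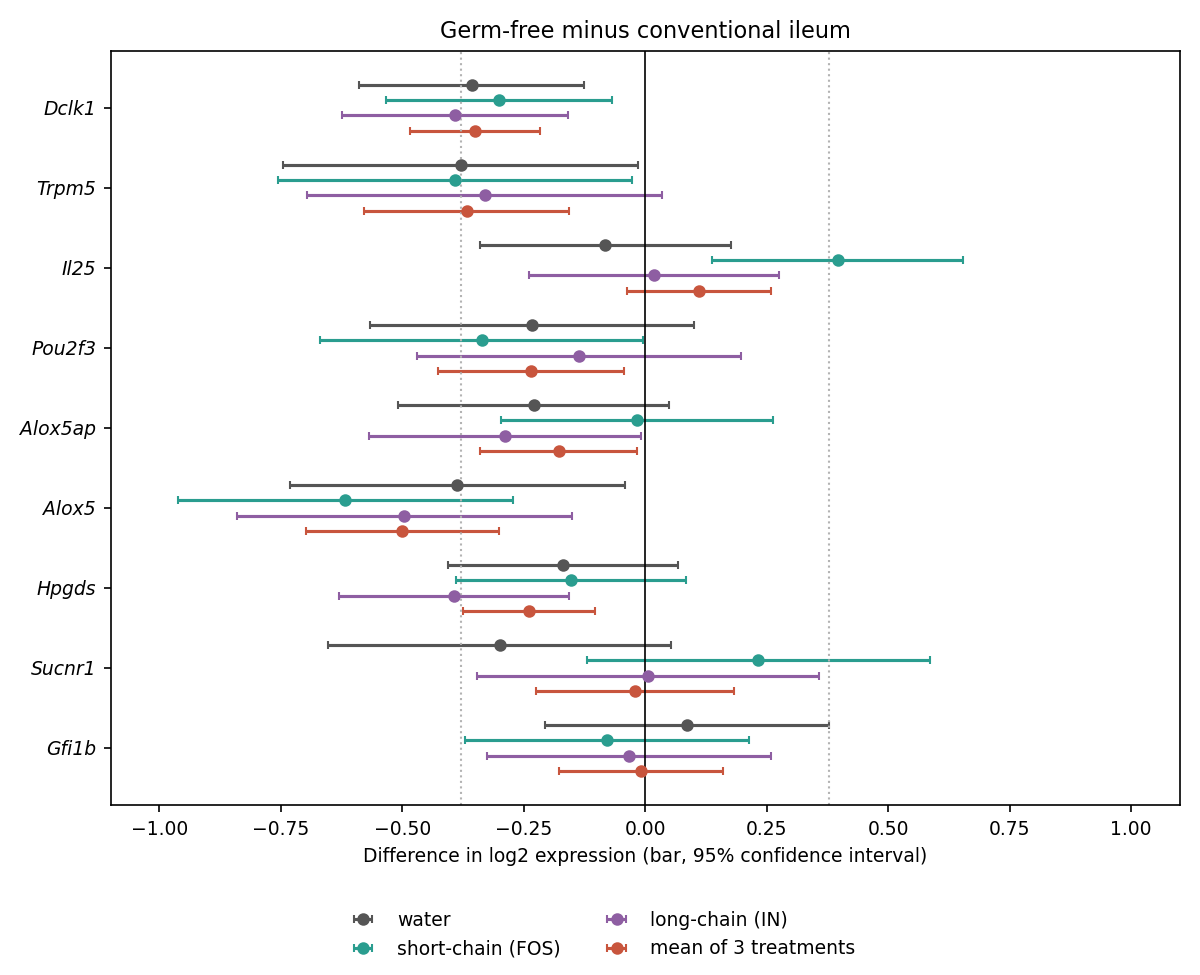
Difference in log2 expression between germ-free and conventional mice (horizontal axis) for each measured marker, on water, after each fructan and as the mean of the 3 treatments. Points are limma estimates, bars their 95% confidence intervals, and dotted lines mark 1.3-fold. The estimates of Alox5, Dclk1 and Trpm5 lie left of 0 in each treatment, whereas Il25 lies right of 0 after short-chain fructan (0.40).

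The same comparison was made within each treatment, with 4 against 4 mice. The conventional and the germ-free groups of 1 treatment are not shared with another treatment. On water none of the 9 genes was called, against 8.74% of all genes, and 1 gene, Dclk1, passed an adjusted p under 0.05, against 13.5%. Dclk1 was 1.28-fold lower (-0.36, interval -0.59 to -0.13, adjusted p = 0.034, limma). Dclk1, Trpm5 (-0.38) and Alox5 (-0.39) did not overlap between germ-free and conventional mice, 3 of 9 genes against 17.9% of all genes, and each had an exact two-sided permutation p of 0.029, the smallest that 4 against 4 mice can give. At an unadjusted p under 0.05 there were 3 of 9 genes, against 25.8% of all genes. When only the arrays of these 2 groups were fitted, Trpm5 and Alox5 were called, and Dclk1 was called without conventional replicate 2 (-0.42) or germ-free replicate 1 (-0.40).

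After short-chain β2→1-fructan 2 of 9 genes were called, against 8.76% of all genes. Alox5 was 1.53-fold lower in germ-free mice (-0.62, interval -0.96 to -0.27, adjusted p = 0.012, limma) and Il25 was 1.32-fold higher (0.40, interval 0.14 to 0.65, adjusted p = 0.032, limma). Dclk1, Il25 and Alox5 did not overlap, 3 of 9 against 19.9% of all genes. Trpm5 (-0.39), Pou2f3 (-0.34) and Dclk1 (-0.30) had an unadjusted p under 0.05 and did not pass the adjusted threshold. The count changed to 1 gene without conventional replicate 2 or 4 or germ-free replicate 4, and to 4 genes without conventional replicate 3.

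After long-chain β2→1-fructan 3 of 9 genes were called, all lower in germ-free mice, against 9.69% of all genes called and 6.26% called lower. Alox5 was 1.41-fold lower (-0.50, adjusted p = 0.044, limma), Dclk1 1.31-fold (-0.39, adjusted p = 0.018, limma) and Hpgds 1.31-fold (-0.39, adjusted p = 0.020, limma). Dclk1 and Hpgds did not overlap between the groups, 2 of 9 against 15.9% of all genes. Germ-free replicate 2 of this treatment had the lowest Dclk1 (5.40), Alox5 (4.43) and Alox5ap (5.25) of all 24 mice. Without it 1 gene was called, as was the case without conventional replicate 3 or 4 or when only these 2 groups were fitted, and none was called after cyclic loess normalization.

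The second question was whether either fructan changed the markers. It did so for none of the 9 genes at the thresholds used. In conventional mice, 0 of 9 were called for short-chain fructan against water (0.409% of all genes), for long-chain fructan against water (0.313%) and for long-chain against short-chain fructan (0.213%). In germ-free mice 0 of 9 were called as well, against 0.579%, 0.855% and 1.41% of all genes. No gene of the 18820 passed an adjusted p under 0.05 in any of these 6 comparisons in limma, while 684 to 2392 genes had an unadjusted p under 0.05. The moderated t with an intensity-dependent prior, as used in the study, also called 0 of the 9 genes in each.

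By the probe sets used, the smallest p of the markers in these comparisons was that of Il25 in conventional mice after short-chain fructan. It was 3.25, 3.01, 3.22 and 3.17 after the fructan and 3.54, 3.43, 3.67 and 3.04 on water, so that the groups overlapped through the 1 low mouse on water. The difference was -0.26 (interval -0.52 to -0.0025, unadjusted p = 0.048, adjusted p = 0.96, limma). With the probe sets used, Il25 was the only marker with an unadjusted p under 0.05 in the 6 comparisons, 1 of 9 here against 5.22% of all genes. Without conventional replicate 4 on water, which had 3.04, the difference was -0.39 and Il25 was called. In germ-free mice Il25 had a difference of 0.22 after short-chain fructan (interval -0.041 to 0.48, adjusted p = 0.91, limma). Between long-chain and short-chain fructan in germ-free mice it did not overlap (-0.21, exact two-sided permutation p = 0.029, adjusted p = 0.49 in limma), 1 of 9 genes against 5.43% of all genes. The second probe set of Dclk1, with low values and not used here, differed by 0.35 between short-chain fructan and water in germ-free mice (unadjusted p = 0.017, adjusted p = 0.78, limma).

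The intervals show what size of change these groups could have missed. For short-chain fructan against water in conventional mice, Dclk1 had a difference of 0.098 with an interval from -0.13 to 0.33, Hpgds one of 0.013 (-0.22 to 0.25), and Alox5 one of 0.19 (-0.15 to 0.54). For long-chain fructan against water in conventional mice, Dclk1 was at 0.071 (-0.16 to 0.30), Trpm5 at -0.20 (-0.56 to 0.17) and Gfi1b at 0.19 (-0.097 to 0.49). In germ-free mice the widest bounds over the 9 genes ran from -0.42 to 0.64 for short-chain and from -0.51 to 0.61 for long-chain fructan against water, both upper bounds being those of Sucnr1. For Pou2f3 the 4 differences from water lay between -0.092 and 0.096. Its intervals in conventional mice ran from -0.24 to 0.43 after short-chain and from -0.42 to 0.24 after long-chain fructan. Differences of 1.3-fold, 0.38 on the log2 scale, therefore lay outside the interval for Dclk1 in conventional mice and inside it for Alox5 after short-chain fructan. For Dclk1 this holds for the probe set used. Its second probe set had -0.14 (SE 0.14) for short-chain fructan against water in conventional mice.

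**Figure D3:**
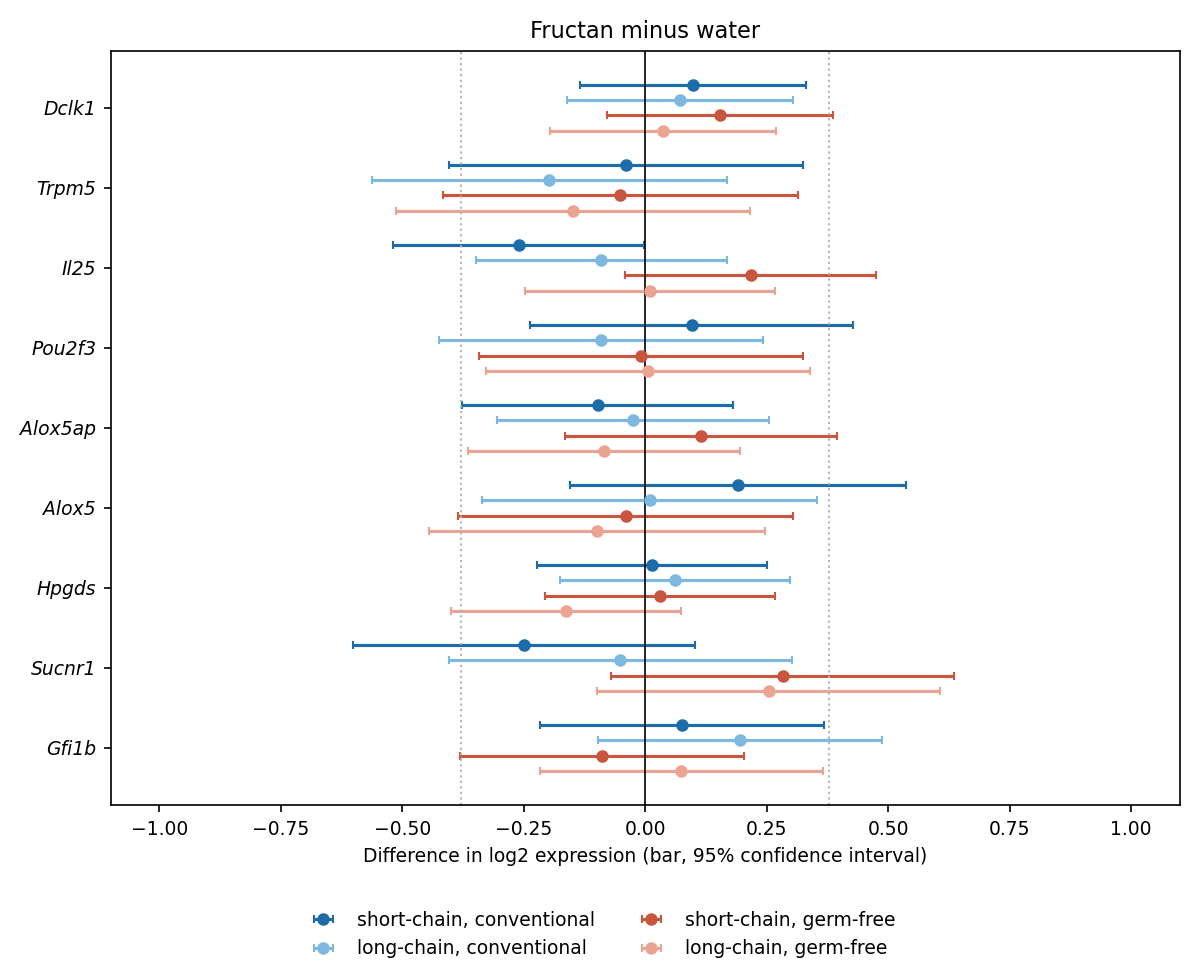
Difference in log2 expression between each fructan and water (horizontal axis) for each measured marker, in conventional mice (blue) and germ-free mice (red). Points are limma estimates with 95% confidence intervals, and dotted lines mark 1.3-fold. The interval of Il25 after short-chain fructan in conventional mice ends just below 0 and each other interval includes 0.

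Whether the fructan effect differed between germ-free and conventional mice was tested by the interaction. None of the 9 genes was called for short-chain fructan (0.707% of all genes) or for long-chain fructan (0.531%), and no gene of all passed an adjusted p under 0.05 in limma, with 1025 and 704 genes at an unadjusted p under 0.05. For short-chain fructan the largest interactions by the probe sets used were those of Sucnr1 (0.53, interval 0.034 to 1.03, unadjusted p = 0.037) and Il25 (0.48, interval 0.11 to 0.84, unadjusted p = 0.012), and both had an adjusted p of 0.90 in limma. Both belong to the probe sets with low values, and for Il25 the difference from water was -0.26 in conventional and 0.22 in germ-free mice. Il25 was called with 1 prior for all genes or after cyclic loess, and without replicate 4 of the conventional (0.61) or the germ-free mice on water (0.55), and Sucnr1 without conventional replicate 4 on short-chain fructan (0.72). The second probe set of Dclk1 had an interaction with short-chain fructan of 0.49 (unadjusted p = 0.019, adjusted p = 0.90, limma).

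Other genes known from tuft cells were described next, from a list of 22 genes of which 20 were measured. In germ-free mice 11 of the 20 were lower and none higher at an adjusted p under 0.05, against 15.4% of all genes lower and 18.6% higher. By the criteria of the study 5 were called, all lower, against 5.22% of all genes called lower, and the median difference was -0.25 against 0.03 over all genes. Plcb2, the phospholipase of the taste cascade, was 1.40-fold lower (-0.49, adjusted p = 1.0e-06, limma), and Gnat3, the taste G protein gustducin, 1.37-fold (-0.46, adjusted p = 2.5e-04). Vav1, an exchange factor of haematopoietic cells that tuft cells share, was at -0.44 and the adaptor Fyb at -0.64. Rgs13, a regulator of G protein signalling, was at -0.42 and is named here after its value was seen, as the remaining called gene. Fyb and Vav1 are strongly expressed in leucocytes, and whether the signal of the other called genes came from tuft cells alone was not tested. Of the 20 genes 5 had a positive difference, none of which passed. Within treatments, 4 of 20 were called on water, 5 after short-chain and 4 after long-chain fructan, all lower, against 5.96%, 4.47% and 6.26% of all genes called lower, and the medians were -0.19, -0.27 and -0.26.

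The genes of the chemosensory chain differed unevenly. Of 12 measured genes of taste transduction, 5 were lower and none higher at an adjusted p under 0.05, against 15.4% and 18.6% of all genes. Of these, 2 were called, against 5.22% of all genes called lower, and the median of the 12 was 0.0084. Trpm5 is also counted among the markers, and Plcb2 and Gnat3 among the other tuft genes. The lower ones were Plcb2, Gnat3, Trpm5 and the inositol trisphosphate receptors Itpr2 (-0.27, adjusted p = 3.0e-04, limma) and Itpr3 (-0.18, adjusted p = 5.7e-05). These act in sequence from the G protein to the channel. Other genes of the same list went the other way without passing the threshold. Gnb1, Gnb3, Tas1r1 and Calhm1 had higher means in germ-free mice in each treatment. The receptor Sucnr1 was at -0.02.

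Of 19 measured genes of eicosanoid synthesis, 5 were lower and 3 higher at an adjusted p under 0.05, against 15.4% and 18.6% of all genes, with a median of 0.03 as over all genes. Alox5 and Hpgds, already counted among the markers, are 2 of the 5 lower genes. Alox5 was the 1 gene called lower, against 5.22% of all genes. Ptgr1, a reductase that inactivates leukotriene B4 and prostaglandins, was the 1 called higher (0.51, adjusted p = 1.0e-07, limma), against 2.99% of all genes. Ptges3 (0.27) and Hpgd, the dehydrogenase that inactivates prostaglandins (0.28, adjusted p = 1.1e-04), were also higher. Among 10 measured eicosanoid receptors, 4 were lower and 2 higher at an adjusted p under 0.05, against the same shares of all genes. The cysteinyl leukotriene receptor Cysltr2 was 1.55-fold lower (-0.64, adjusted p = 5.6e-07, limma) and the prostaglandin E receptor Ptger3 1.92-fold higher (0.94, adjusted p = 8.7e-06).

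Of 20 measured genes of the type 2 circuit, in which interleukin-25 acts, 6 were lower and 1 higher at an adjusted p under 0.05, against 15.4% and 18.6% of all genes, and the median was -0.04. Il4ra, the receptor chain through which interleukin-4 and interleukin-13 signal, was the 1 gene called (1.32-fold lower, -0.40, adjusted p = 2.1e-06, limma). This is 1 of 20 genes, against 8.2% of all genes called in either direction and 5.22% called lower. Il13ra1, its partner for interleukin-13, was at -0.26 (adjusted p = 1.8e-04), Gata3 at -0.23 (adjusted p = 0.0093) and the goblet cell gene Clca1 at -0.13 (adjusted p = 0.0026). Of 12 measured genes of secretory lineage choice, 2 were lower and 1 higher at an adjusted p under 0.05, against 15.4% and 18.6% of all genes, and none was called, against 8.2%, with a median of 0.06.

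Markers of some other cell types differed between germ-free and conventional mice as well, and their part in the differences of the tuft genes was not tested. Of 12 myeloid genes, among them Csf1r and Itgam, 9 were lower and 1 higher at an adjusted p under 0.05 (15.4% and 18.6% of all genes), with a median of -0.32. Their mean level was 6.75 to 6.96 in conventional and 6.39 to 6.73 in germ-free mice. The counts that follow use the same threshold and stand against the same shares of all genes, 15.4% lower and 18.6% higher. Among mast cell genes 3 of 12 were lower, Mcpt2 (-0.61), Kit (-0.28) and Mcpt1 (-0.70), and among granulocyte genes 2 of 8 were higher. Of 7 B cell genes 2 were lower, Cd79b (-0.51) and Cd79a (-0.77). Of 4 measured platelet genes 3 were higher, and of 4 red cell genes 2.

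The wall of the gut differed too. All 7 measured genes of enteric neurons were lower in germ-free mice at an adjusted p under 0.05 (median -0.61, mean level 6.28 to 6.77 in conventional and 5.34 to 6.10 in germ-free mice), as were all 8 genes of smooth muscle (median -0.43, mean level 9.45 to 9.73 and 8.54 to 9.40). All 6 adipocyte genes were higher (median 1.57, mean level 5.44 to 6.82 and 6.39 to 8.34). General epithelial genes overlapped, 10.53 to 10.69 in conventional and 10.58 to 10.69 in germ-free mice, with a median difference of 0.02, 1 of 10 lower and 3 higher. Of all genes, 15.4% were lower and 18.6% higher at this threshold. The mean level of the 9 tuft markers was 4.95 to 5.40 in conventional and 4.74 to 5.08 in germ-free mice.

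**Figure D4:**
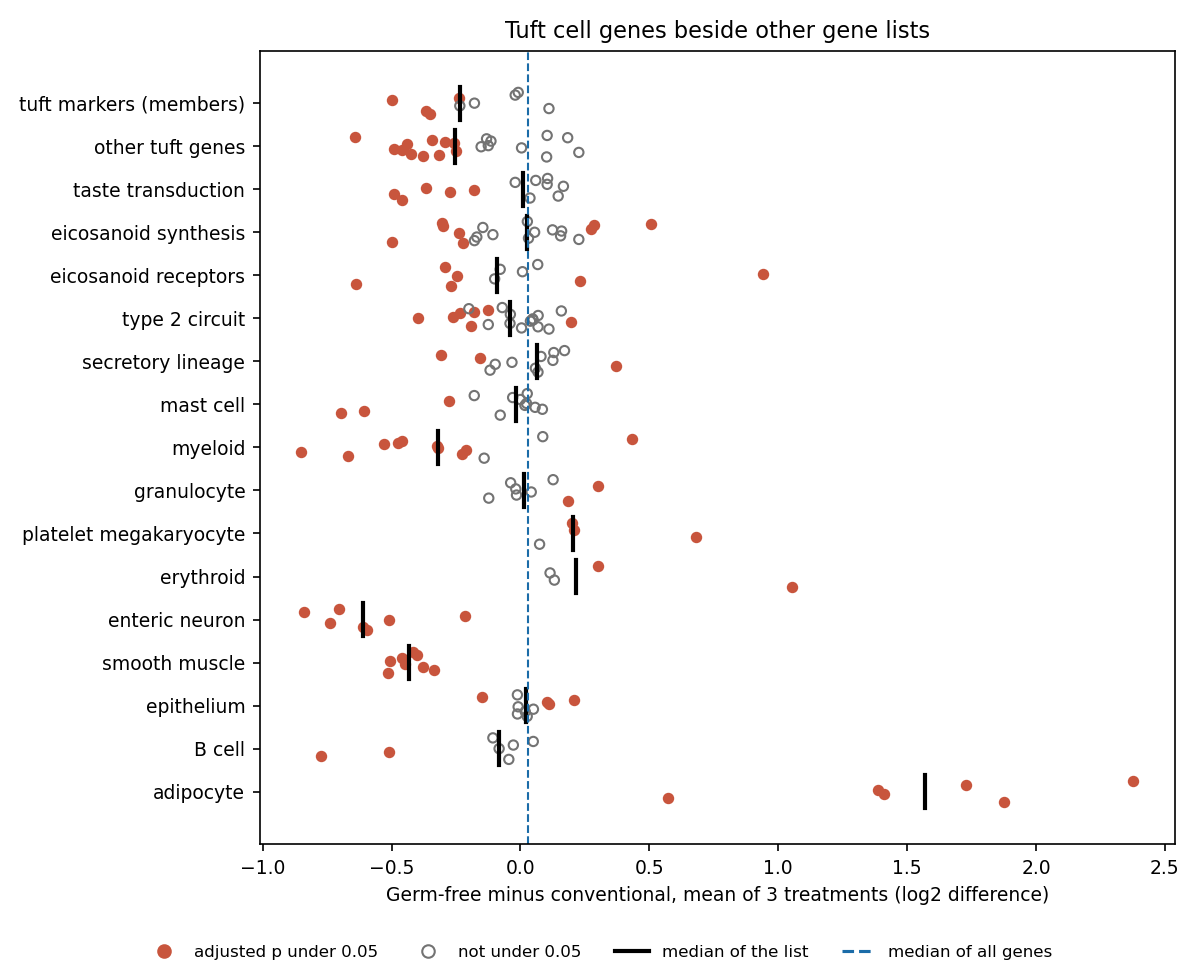
Difference in log2 expression between germ-free and conventional mice, mean of the 3 treatments (horizontal axis), for each measured gene of 17 lists (rows). Filled points have an adjusted p under 0.05 in limma, black bars are the median of a list and the dashed line that of all genes. The tuft markers (median -0.24) and other tuft genes (-0.25) lie left of the epithelial genes (0.02), as do the myeloid, neuron and muscle genes.

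Mice within a group also differed, and the markers were compared over these deviations from the group means (24 mice on arrays that share 1 normalization, given as a description). Of 36 pairs of markers 29 had a positive Pearson's r, with a median of 0.20. The highest was that of Alox5ap with Alox5, which act together in leukotriene synthesis (r = 0.72, Spearman's rho = 0.63, and r = 0.56 without the 2 mice farthest from the median). Dclk1 had an r of 0.68 with Alox5 and of 0.67 with Alox5ap, but of -0.00010 with Trpm5. Trpm5 was nearest to Hpgds (0.49), and Il25 to Gfi1b (0.55). The lowest r was that of Il25 with Sucnr1 (-0.35), the 2 genes with the lowest values.

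With the mean level of the other tuft genes, r within groups was 0.79 for Alox5, 0.76 for Alox5ap and 0.67 for Dclk1, and 0.25 for Trpm5, 0.26 for Hpgds and 0.18 for Il25. With the mean of B cell genes, r was 0.70 for Dclk1, above its r with the other tuft genes, and 0.33 for Alox5 and 0.41 for Alox5ap. Without the 2 farthest mice the r of Dclk1 was 0.44 with B cell genes and 0.60 with the other tuft genes. The B cell mean varied most in germ-free mice on long-chain fructan (SD 0.46, against 0.059 to 0.18 in the other groups). Dclk1 had an r of -0.61 with the mean of red cell genes and of -0.51 with that of platelet genes. With the myeloid mean, r was 0.18 for Alox5 (0.11 without the 2 farthest mice), 0.43 for Alox5ap (0.54), 0.13 for Dclk1 (-0.00038) and 0.16 for Hpgds (-0.099). With the mean of enteric neuron genes it was 0.076 for Dclk1, and with the mean of mast cell genes 0.69 for Pou2f3 (0.34 without the 2 farthest mice). Of the 20 other tuft genes, all had a positive r with the mean of the standardized deviations of the 9 markers. Their median was 0.49 against 0.057 over all genes. All 12 taste genes were positive too (median 0.33), as were 6 of 7 B cell genes (median 0.29, highest 0.60). Of the taste genes, Trpm5 and Sucnr1 are markers and enter the mean of the 9 markers themselves. Gnat3, Plcb2 and Tas1r3 are also among the other tuft genes. Of the other tuft genes Siglecf, a lectin on eosinophils and tuft cells, was highest (0.73).

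**Figure D5:**
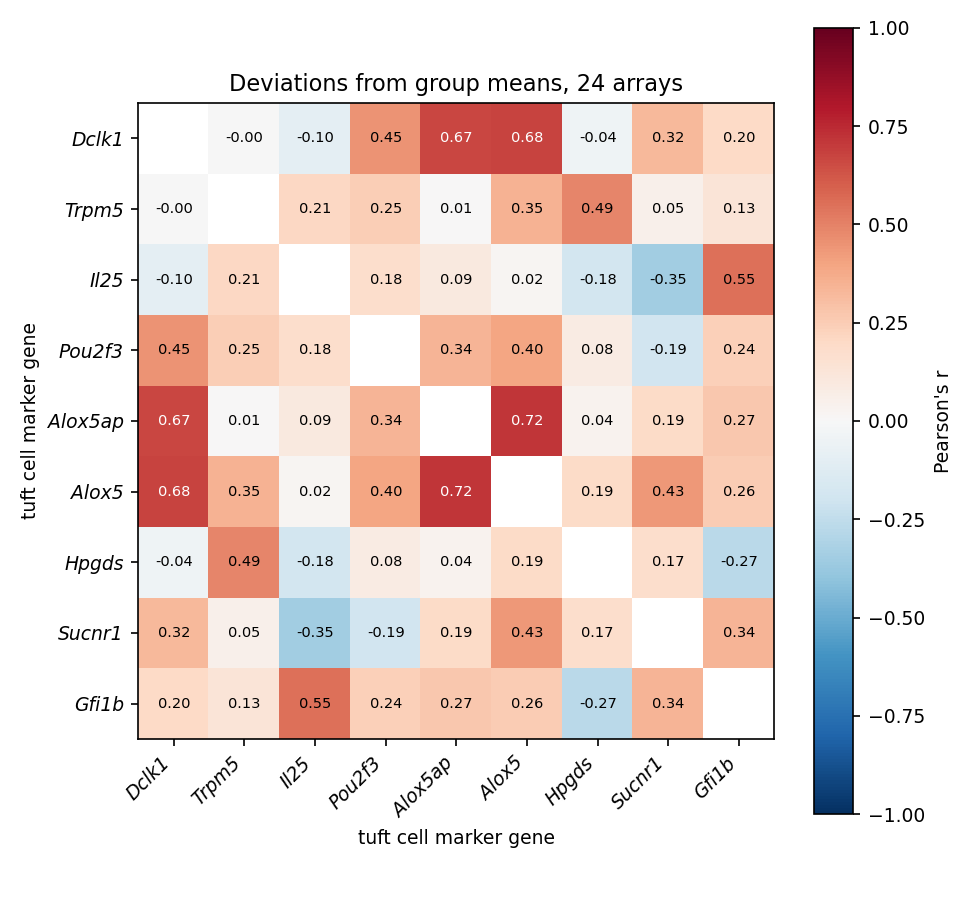
Pearson's r between the deviations of each pair of measured tuft cell markers (both axes) from their group means, over 24 arrays. Alox5, Alox5ap and Dclk1 form the strongest positive block (0.67 to 0.72), and Il25 with Sucnr1 has the lowest value (-0.35).

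The genes most like the mean of the 9 markers within groups, of all genes outside the set, were Rab5c (r = 0.80), Usp18 (0.80), Capn13 (0.77), Strip2 (0.76), Abr (0.75), Glp1r (0.75), Ubap1 (0.75), Pik3cg (0.74), Hps6 (0.73) and Tldc2 (0.73). Without removing the group means, so that colonization also counts, they were Usp18 (0.86), Glp1r (0.84), Pik3cg (0.83), Oasl2 (0.82), Capn13 (0.81), Stat2 (0.81), Oas1a (0.81), Siglecf (0.81), Zfp385b (0.80) and Amdhd2 (0.80). Usp18, Capn13, Glp1r and Pik3cg were in both lists. Single markers ranged from 0.84 (Alox5) to 0.29 (Il25) in their r with the mean within groups, to which each of them contributes.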

How the data were processed

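RNA of the terminal ileum was measured on 24 Affymetrix Mouse Gene 1.1 ST arrays, 1 per mouse. The log2 values were used as deposited by the authors, who corrected, quantile-normalized and summarized the probes with RMA in the library affyPLM. The methods name a remapped annotation, whereas the deposited values carry the maker's probe set numbers. Probe sets with 1 symbol were kept, and the one with the highest mean for genes with several. The number of mice limits precision. Litter and cage are not given in the sources used here.

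All genes were fitted in R 4.3.3 with limma 3.58.1 (6 group means, eBayes with trend). Calls follow the study, with a fold change above 1.3 and an unadjusted p below 0.01. The fit was checked on simulated data. The markers and the lists were chosen with earlier results of these data known. All markers are named, of other lists up to 4 genes with the smallest p or all called genes where 4 or fewer were called, and the 10 most similar genes. Genes that only shared probe sets carry were left out.

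Alternatives were another prior, the intensity-based moderated t, only the arrays compared, cyclic loess, a filter on low values, the mean of all probe sets of a gene, the replicate number as a block and each mouse left out.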

Additional observations from a re-analysis of the deposited data

Results flagged for a closer look

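Within groups of 4 mice, 1 value stood far from the others in 5 of 54 combinations of marker and group, where the gap to the nearest value took up more of the group's range than Dixon's 95% critical value. Chance alone gives about 1 in 20. Low values of this kind were Dclk1 in germ-free mice after short-chain β2→1-fructan (replicate 1, 5.81), Alox5ap in germ-free mice after long-chain fructan (replicate 2, 5.25) and Gfi1b in germ-free mice after short-chain fructan (replicate 2, 4.74). High values were Alox5ap in conventional mice on water (replicate 1, 6.22) and Gfi1b in conventional mice after short-chain fructan (replicate 4, 5.43).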

How the results depend on the processing

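Over 212 recomputed counts of markers called, 186 stayed within 1.5 times the value reported and 26 did not. Differences of single markers were recomputed only for the 21 combinations of marker and comparison with an unadjusted p under 0.05 in the limma fit reported. The second probe set of Dclk1 entered only through its mean with the first. Of 426 recomputed differences none turned its sign, 390 kept their side of the thresholds, 16 lost the call and 20 gained one. The cause of these changes was not tested. With only the arrays of the groups compared, germ-free against conventional mice gave 2 markers on water in place of 0 and 1 after long-chain fructan in place of 3. Cyclic loess gave 0 after long-chain fructan and 1 for the interaction with short-chain fructan in place of 0, as did 1 prior for all genes (1). Leaving out 1 mouse at a time gave 0 to 1 on water, 1 to 4 after short-chain fructan (4 without conventional replicate 3), 1 to 4 after long-chain fructan, 1 to 2 for the mean of 3 treatments (2 where Trpm5 passed 1.3-fold), 0 to 1 for short-chain fructan against water in conventional mice and 0 to 1 for the interaction with short-chain fructan. In the remaining comparisons each setting gave 0. The shares of all genes called under these settings are not given here.

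For single markers after long-chain fructan, Dclk1 lost its call with the mean of both probe sets (-0.25), without germ-free replicate 2 (-0.26), without conventional replicate 4 (-0.35), after cyclic loess (-0.37) and with only the arrays compared (-0.39). Alox5 lost its call there without germ-free replicate 2 (-0.34), without conventional replicate 3 (-0.44) or 4 (-0.39), after cyclic loess (-0.47) and with only the arrays compared (-0.50), and Hpgds without conventional replicate 3 (-0.32) or germ-free replicate 3 (-0.36) and after cyclic loess (-0.37). After short-chain fructan, Alox5 lost its call without conventional replicate 4 (-0.46) and Il25 without conventional replicate 2 (0.35) or germ-free replicate 4 (0.38).

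No sign that shared replicate numbers pair the mice was seen: same-numbered mice of 2 groups had a mean correlation of deviations of 0.0041, other pairs -0.0013, and in 0 of 15 pairs of groups did each number exceed 0.1. What the number stands for is not stated, so this check cannot exclude a shared litter, cage or day. With the replicate number as a block, the counts of markers called were the same as reported, 0 on water, 2 after short-chain, 3 after long-chain fructan and 1 for the mean of 3 treatments, and 0 in each other comparison. At an adjusted p under 0.05, 6 markers passed for the mean of 3 treatments in place of 4, Pou2f3 (0.046) and Alox5ap (0.047) being added. In the fit reported 34% of all genes passed, and the share with the block is not given here. The number of mice limits the precision, as does the low signal of Sucnr1 and Il25.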

Other observations

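Conventional mice after short-chain β2→1-fructan spread widely in several markers. Their mean levels over the 20 other tuft genes were 5.57, 5.32, 5.35 and 5.65, and their epithelial means 10.59, 10.59, 10.59 and 10.69. Germ-free mice after the same fructan had mean levels over the other tuft genes of 5.15, 5.27, 5.27 and 5.27.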
